A study of Saccharomyces cerevisiae with 22 samples.

Results

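The genes at the right end of chromosome V of budding yeast were followed in strains that had evolved under protein mistranslation. They were taken by their systematic names, as every gene on the array from YER139C to the last name of the arm, YER190W, without YER144C (UBP5), YER145C (FTR1) and YER151C (UBP3). This gave 48 of the 6225 genes on the array, in 2 neighbouring stretches. The first stretch, YER139C to YER159C, holds 18 genes, and the second, YER161C to YER190W, holds 30. The split at YER160 and the left-out genes were set with earlier results of these data known, so the counts below describe the stretches.

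RNA from cells in exponential growth in synthetic medium without leucine was hybridised to 22 Agilent arrays in a single colour. All strains were self-diploids of the BY4742 background, which lacks functional HIS3, LEU2, LYS2 and URA3. Each carried a single-copy LEU2 plasmid, either with the tRNA that reads the leucine codon CUG and is charged with serine, or without a tRNA gene (the empty vector). The ancestor had 2 arrays with the empty vector and 3 with the tRNA. The evolved lineages B3, D11 and H9, so named in the labels, had 2 (B3) or 3 (D11 and H9) arrays with the empty vector and 3 with the tRNA. A lineage is 1 clone of a population that evolved with the tRNA, and its empty-vector form was made afterwards by exchanging the plasmid. Each lineage thus stands for itself and not for evolved lines in general. The study's DNA sequencing listed loss of part of this chromosome end from a single copy in most of its evolved lines, and a shorter loss in another. From its arrays the study also reported lower mRNA of the lost genes in an evolved line. The labels do not pair the lineages with the study's numbered lines, and DNA was not analysed here.

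Yeast chromosome ends can be lost from a diploid cell as long as the homologous chromosome keeps its genes. The transcripts of most yeast genes follow the number of gene copies, while genes under tight feedback or induced by a condition can depart from it. The end of a yeast chromosome carries repeated subtelomeric genes, here a Y′ element, whose near-identical copies lie at other chromosome ends. A probe for such a gene can read transcripts of all copies. The remaining genes of this arm serve unrelated functions, among them general transcription (SPT15, BUR6), DNA repair (RAD3, RAD4, MAG1), mRNA handling (PAB1, BRR2, LSM5) and the mitochondrion (COX15, OXA1, PET122).

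Levels below are the log2 of the array signal minus the median of that array, so that a level of 0 is the median probe, and levels of different genes are not comparable. Differences are on the log2 scale, and a percent level is the level in a lineage as a percentage of that in the ancestor. A difference of -1 is a level of 50%. A gene was called lower or higher at an adjusted p under 0.05 (limma, adjusted over all 5912 genes tested). All members except YER181C, a dubious reading frame that was well above background on 1 array only, passed the filter on dim probes, which left 47. Arrays had median signals of 356 to 2278 and 85.8% to 95% of their spots well above background. Replicate 3 of D11 with the empty vector was lowest in both and correlated with another replicate at 0.924 only. The labels do not say that replicates were separate cultures, so the p-values measure the spread between these arrays. A lower level in every cell and a loss in some cells of a culture cannot be told apart.

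In all 3 lineages the transcripts of the first stretch stood at close to 50% of the ancestor's level, and in D11 and H9 the second stretch did too. With both plasmids combined, 15 of the 18 first-stretch genes were lower in B3, where 6.77% of all tested genes were. In D11 17 of 18 were lower, against 7.9% of all genes, and in H9 16 of 18, against 6.63%. The median difference of these genes was -0.86 in B3 (55% of the ancestor), -1.01 in D11 (49.7%) and -0.90 in H9 (53.6%). The median of all tested genes lay at 0.016 or less from 0 in each lineage. From YER161C on the lineages parted. In the second stretch 26 of 29 tested genes were lower in D11 and 26 in H9, whereas 4 were lower in B3. The median difference was -0.87 in D11 (54.9%), -0.96 in H9 (51.4%) and -0.048 in B3 (96.7%).

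**Figure D1:**
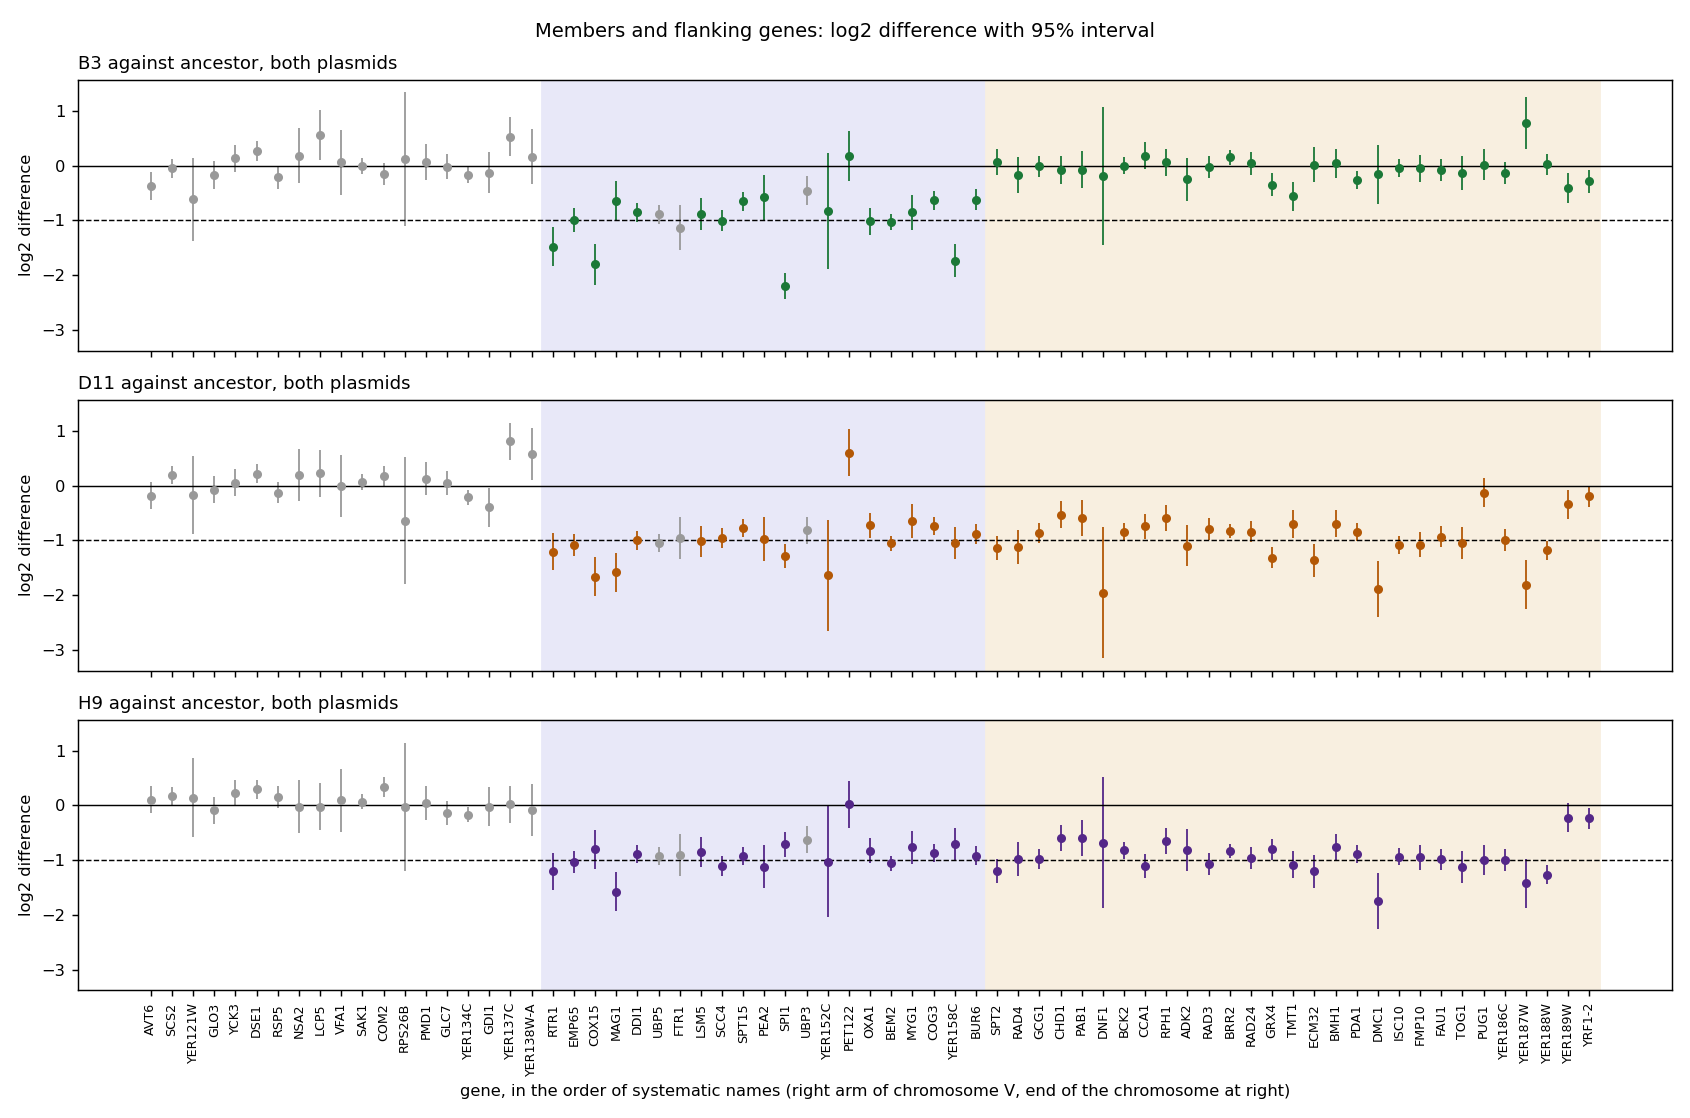
Log2 difference of each lineage from the ancestor, with both plasmids combined, for the genes in the order of their systematic names. Points are fitted differences and bars are 95% intervals; the blue field is the first stretch, the orange field the second, and grey points are flanking genes or genes left out of the members. The solid line marks no difference and the dashed line a level of 50%; coloured points near the dashed line end at BUR6 in B3 and go on to YER188W in D11 and H9.

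The members' own intervals show how they lay around 50%. Of the first-stretch genes, 16 (B3), 17 (D11) and 17 (H9) had a 95% interval that lay wholly below 0, against 14.3%, 13.7% and 12.3% of all tested genes. The interval held -1 for 9 (B3), 10 (D11) and 14 (H9) of the 18, against 7.14%, 10.1% and 7.02% of all genes. In B3 1 of these 9, YER152C, had a wide interval that held 0 as well. Of the 29 second-stretch genes, the interval lay below 0 for 28 in D11 and 27 in H9, and held -1 for 12 and 19. Across the first stretch the lowest and highest differences were -2.19 and 0.18 for B3, -1.66 and 0.60 for D11, and -1.57 and 0.018 for H9. The medians were thus near 50%, while the interval excluded -1 for 9 (B3), 8 (D11) and 4 (H9) of the 18 first-stretch genes and for 17 (D11) and 10 (H9) of the 29 second-stretch genes.

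On single arrays the stretch means fell into separate ranges. Relative to the ancestor with the same plasmid, the first stretch averaged -1.06 ± 0.00315 (SD, n = 2) in B3 with the empty vector and -0.90 ± 0.0259 (SD, n = 3) with the tRNA. In D11 these means were -1.10 ± 0.0891 (SD, n = 3) and -0.86 ± 0.0263 (SD, n = 3), and in H9 -1.02 ± 0.0959 (SD, n = 3) and -0.80 ± 0.0413 (SD, n = 3). These SDs leave out the spread of the ancestor, and since each plasmid has its own ancestor arrays, shared by all lineages, the values of the 2 plasmids are not compared with each other here. The second stretch averaged -0.086 ± 0.00102 (SD, n = 2) and -0.042 ± 0.0142 (SD, n = 3) in B3 without and with the tRNA, -0.93 ± 0.0111 (SD, n = 3) and -0.97 ± 0.0992 (SD, n = 3) in D11, and -0.92 ± 0.0598 (SD, n = 3) and -0.93 ± 0.0119 (SD, n = 3) in H9. Every D11 and H9 array was lower than every B3 array there. Because the 3 slides held the replicates of 1 number each, differences were also taken within slides. Within a slide the first-stretch mean lay between -1.06 and -0.81 for B3, between -1.13 and -0.77 for D11, and between -1.07 and -0.76 for H9. The second-stretch mean lay between -1.08 and -0.85 for D11, between -0.98 and -0.91 for H9, and between -0.086 and -0.030 for B3. Replicates numbered 3 shared a slide scanned on another day, which lacked the empty-vector forms of the ancestor and B3.

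**Figure D2:**
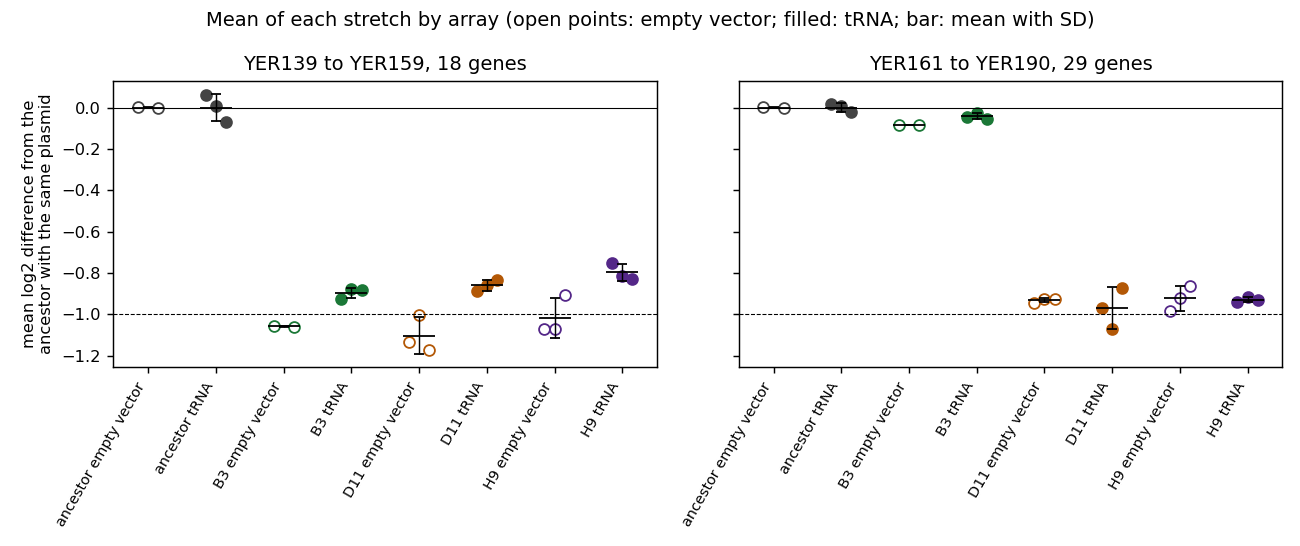
Mean log2 difference of each stretch from the ancestor with the same plasmid, 1 point per array; open points carry the empty vector, filled points the tRNA, and bars are the group mean with its SD. In the first stretch all 17 lineage arrays lie between -1.17 and -0.75; in the second, the B3 arrays lie between -0.086 and -0.026 and the D11 and H9 arrays between -1.07 and -0.86.

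The same pattern was found when each plasmid was compared on its own. Without the tRNA, 14 first-stretch genes were lower in B3 (7.31% of all genes were), 16 in D11 (14%) and 16 in H9 (1.66%). With the tRNA on both sides, 14 were lower in B3 (1.61% of all genes), 16 in D11 (2.23%) and 13 in H9 (7.34%). In the second stretch 23 genes were lower in D11 and 24 in H9 with the empty vector, and 24 in each with the tRNA. B3 had a single lower gene of the second stretch with each plasmid, GRX4 with the empty vector (-0.52, adjusted p = 0.0288) and TMT1 with the tRNA (-0.88, adjusted p = 0.00243). No first-stretch gene was called higher with either plasmid. The number of H9 calls with the empty vector depended on the fit. It fell when either empty-vector array of the ancestor was left out, which leaves a single array in that group. A limma fit of these 2 groups alone called none, with 17 first-stretch and 26 second-stretch genes at an unadjusted p under 0.05. The share of all genes in that fit is not given here. With single arrays left out, the H9 means, both plasmids combined, stayed between -0.93 and -0.89 (first stretch) and between -0.94 and -0.91 (second).

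The lineages were also compared with each other. The second stretch was delimited with its lower level in D11 and H9 but not in B3 known, so the following counts describe it and are no independent test. Without the tRNA, 22 of the 29 genes were lower in D11 than in B3, against 4.58% of all genes, and 23 were lower in H9 than in B3, against 14.5%. With the tRNA, 25 were lower in D11 than in B3 (all genes 4.04%) and 24 in H9 than in B3 (all genes 10.6%). Their median difference from B3 was -0.85 and -0.89 in D11 and -0.82 and -0.85 in H9, without and with the tRNA. No second-stretch gene was called higher than in B3. In a fit of the 2 groups alone, the D11 count with the empty vector went to 0 (limma, 22 genes at an unadjusted p under 0.05) and the H9 count to 14. The shares of all genes in these fits are not given here. D11 and H9 differed from each other at 14 of the 47 members with the empty vector, where 33.9% of all genes differed, a share no larger than the background. With the tRNA they differed at 3 members (SPI1, GRX4 and YER188W), against 8.63% of all genes.

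The edges of the lower stretches were followed gene by gene. The nearest array gene before the first stretch, YER138W-A, an uncharacterised reading frame, stood at 6.78 and 6.49 in the ancestor with the empty vector and at 6.79, 6.30 and 6.54 with the tRNA. Its levels were 6.76 and 6.81 and 6.76, 6.92 and 6.49 in B3, 6.80, 6.99 and 8.20 and 6.88, 7.29 and 6.87 in D11, and 6.23, 5.97 and 6.98 and 6.75, 6.64 and 6.44 in H9. No lineage lay below the ancestor's range on all its arrays. YER138W-A had its highest and its lowest level on the same arrays as PET122, described below, and what its probe reads was not tested. The next gene out, YER137C, also uncharacterised, stood at -2.03 and -2.20 and, with the tRNA, at -0.52, -1.20 and -0.55 in the ancestor. In B3 it stood at -1.06 and -1.05 and -0.70, -0.59 and -0.99, in D11 at -0.71, -0.75 and -0.59 and -0.85, -0.17 and -0.71, and in H9 at -1.62, -2.07 and -2.44 and -0.68, -0.77 and -0.92. With both plasmids combined YER137C was lower in no lineage. It was called higher in B3 (144% of the ancestor, adjusted p = 0.046) and in D11 (175%, adjusted p = 0.00162), and not in H9 (101%). Of the 21 array genes from YER119C to YER138W-A, 19 were tested, and their median difference lay between -0.0014 and 0.056. In B3 1 of them was called lower and 2 higher, in D11 1 and 1, and in H9 0 and 2. The higher calls made up 7.8%, 15.4% and 5.73% of all tested genes in B3, D11 and H9.

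RTR1 (YER139C), which encodes a phosphatase of the RNA polymerase II tail, is the first member. It stood at -3.14 and -3.14 in the ancestor with the empty vector and at -3.28, -3.30 and -3.69 with the tRNA. Its levels were -4.70 and -4.62 and -4.87, -5.03 and -4.68 in B3, -4.99, -3.93 and -4.76 and -4.60, -4.41 and -4.23 in D11, and -4.62, -4.31 and -4.25 and -4.49, -4.81 and -4.40 in H9. All lineage arrays were below all ancestor arrays, and the gene fell to 35.9%, 43.4% and 43.5% of the ancestor in B3, D11 and H9 (adjusted p = 2.5e-05, 4.72e-05 and 6.07e-05). It was well above background on 21 of the 22 arrays. BUR6 (YER159C), a subunit of the transcription regulator NC2, closes the first stretch. In the ancestor it stood at 1.47 and 1.48 and 1.53, 1.45 and 1.41 without and with the tRNA. It stood at 0.83 and 0.92 and 0.74, 0.92 and 0.82 in B3, at 0.77, 0.65 and 0.39 and 0.41, 0.77 and 0.54 in D11, and at 0.45, 0.15 and 0.48 and 0.77, 0.68 and 0.81 in H9. Again no lineage array reached the ancestor's range, with differences of -0.62 (SE 0.0893), -0.88 (SE 0.0847) and -0.91 (SE 0.0847), all called.

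SPT2 (YER161C), a chromatin protein bound to nucleosomes, opens the second stretch. The ancestor stood at -0.59 and -0.27 with the empty vector and at -0.12, -0.32 and -0.18 with the tRNA, and B3 at -0.23 and -0.31 and -0.42, -0.15 and -0.12, within the same range. D11 stood at -1.56, -1.34 and -1.20 and -1.73, -1.48 and -1.42, and H9 at -1.68, -1.88 and -1.45 and -1.36, -1.52 and -1.18, all below every ancestor and B3 array. The gene fell to 45.5% in D11 (adjusted p = 1.42e-06) and 43.7% in H9 (adjusted p = 9.81e-07). In B3 the difference was 0.07, with a 95% interval of -0.16 to 0.30. BUR6 and SPT2, neighbours in this list, thus stood on either side of the edge in B3 alone.

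At the chromosome end the differences were smaller. YRF1-2 (YER190W), a helicase gene of a Y′ element, stood at 1.70 and 1.81 in the ancestor with the empty vector and at 1.82, 1.69 and 1.65 with the tRNA. It stood at 1.35 and 1.34 and 1.36, 1.64 and 1.64 in B3, at 1.43, 1.69 and 1.56 and 1.61, 1.38 and 1.57 in D11, and at 1.34, 1.55 and 1.77 and 1.60, 1.25 and 1.46 in H9. The D11 and H9 arrays overlapped with the ancestor, all B3 arrays were slightly below it, and the differences of -0.29, -0.20 and -0.24 were not called. Its neighbour YER189W, also subtelomeric, stood at -2.0 and -1.88 and -2.24, -2.24 and -2.34 in the ancestor. Its levels were -2.29 and -2.61 and -2.77, -2.54 and -2.41 in B3, -2.65, -2.49 and -2.63 and -2.27, -2.62 and -2.0 in D11, and -2.40, -2.42 and -1.81 and -2.50, -2.52 and -2.33 in H9. The difference was called in B3 (-0.40, adjusted p = 0.0496), close to the threshold, and was -0.34 in D11 and -0.22 in H9 without a call. In the comparison with the empty vector YER189W was called lower in D11 (-0.65, 63.8% of the ancestor, adjusted p = 0.0161), and with the tRNA its difference there was -0.026. Both values are uncertain as measures of the locus, since the 2 genes have near-identical copies elsewhere.

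Among the first-stretch genes of the mitochondrion, COX15 and OXA1 fell and PET122 did not. COX15, the heme A synthase of cytochrome c oxidase assembly, had the lowest mean over the 3 lineages. It stood at 0.59 and 0.55 in the ancestor with the empty vector and at -0.67, -0.11 and -0.66 with the tRNA. B3 stood at -1.76 and -1.80 and -1.97, -1.71 and -1.48, D11 at -1.53, -1.51 and -2.54 and -1.32, -1.54 and -1.25, and H9 at -0.59, -0.34 and -0.20 and -1.01, -1.23 and -1.15. With the empty vector the gene fell to 19.6% of the ancestor in B3 (adjusted p = 0.000119), 18.6% in D11 (adjusted p = 7.88e-06) and 51.7% in H9 (adjusted p = 0.0432). The H9 call is close to the threshold and was lost when either ancestor array was left out. With the tRNA on both sides it fell to 42.4% in B3 and 53.9% in D11, and was at 63.7% in H9 without a call. OXA1, which inserts proteins into the mitochondrial inner membrane, fell to 49.5%, 60.7% and 56.6% in B3, D11 and H9.

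PET122, an activator of the translation of the mitochondrial COX3 mRNA, was the member of the first stretch that no lineage showed as lower. It stood at 6.45 and 6.24 in the ancestor with the empty vector and at 6.38, 5.83 and 6.04 with the tRNA. Its levels were 6.43 and 6.43 and 6.43, 6.50 and 6.12 in B3, 6.41, 6.73 and 7.43 and 6.60, 6.97 and 6.75 in D11, and 5.92, 5.57 and 6.81 and 6.47, 6.34 and 6.27 in H9. The D11 arrays with the tRNA lay above all ancestor arrays, and 1 D11 array with the empty vector lay within the ancestor's range. B3 and H9 overlapped with the ancestor, and the difference was 0.18 in B3 (interval -0.27 to 0.63) and 0.018 in H9 (interval -0.41 to 0.45). Both intervals lay above -1. In D11 the gene was called higher (0.60, adjusted p = 0.0418), but without the third empty-vector and the second tRNA array of D11 the difference was 0.41 (adjusted p = 0.151). PET122 and YER138W-A had their highest level on the same array, the third of D11 with the empty vector, and their lowest on the same array, the second of H9 with the empty vector. What the PET122 probe reads was not tested.

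SPI1, a GPI-anchored cell wall protein known from stress and stationary phase, had the largest fall of any member in a single comparison with the ancestor. It stood at 0.85 and 0.78 in the ancestor with the empty vector and at -0.40, -0.14 and -0.21 with the tRNA. B3 stood at -1.71 and -1.70 and -2.08, -2.37 and -1.88, D11 at -0.93, -0.87 and -0.45 and -1.10, -1.44 and -1.21, and H9 at -0.68, -0.38 and -0.62 and -0.28, -0.27 and -0.36. With the empty vector the gene fell to 17.4% in B3, 33.7% in D11 and 38.6% in H9 (adjusted p = 2.86e-07, 6.3e-06 and 8.79e-05). With the tRNA it was at 27.6% in B3, 50% in D11 and, overlapping with the ancestor, 96.7% in H9. SPI1 was higher in H9 than in B3 by 1.15 with the empty vector and by 1.81 with the tRNA (adjusted p = 9.11e-05 and 3.2e-07). It was also higher in D11 than in B3, by 0.95 and 0.86. Between D11 and H9 it differed with the tRNA (-0.95, adjusted p = 0.000375), whereas with the empty vector their arrays overlapped (difference -0.19, interval -0.49 to 0.11).

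**Figure D3:**
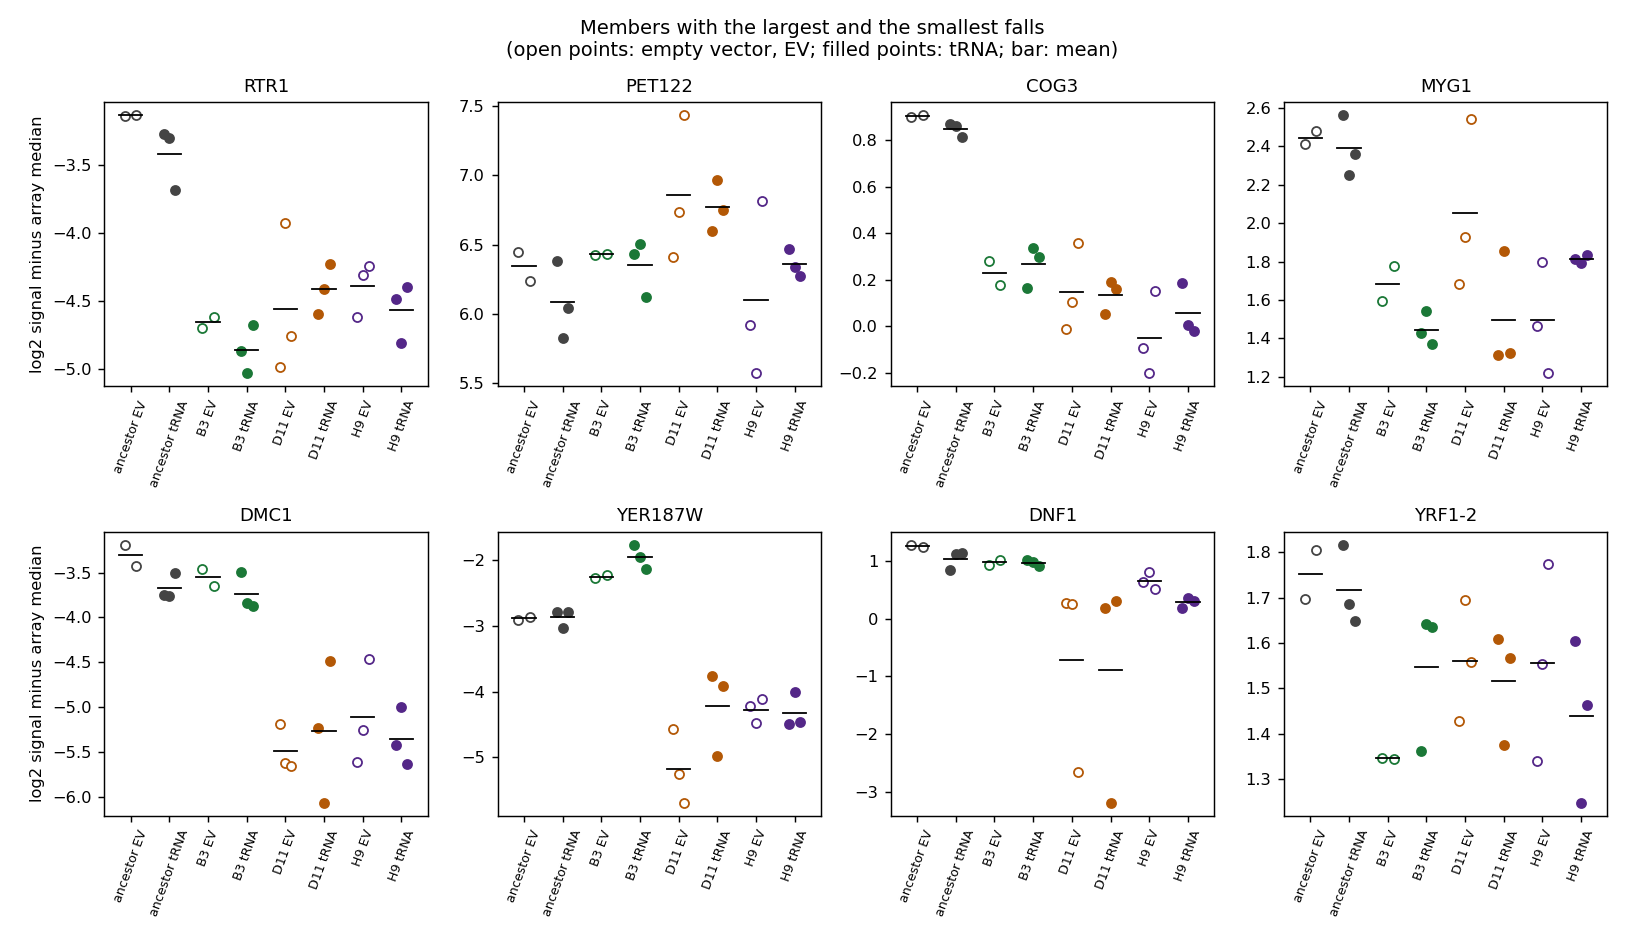
Level on each array of RTR1, DMC1, YER187W and DNF1, among the members with the largest falls of their stretch, and of PET122, COG3, MYG1 and YRF1-2, among those with the smallest. The vertical axis is log2 signal minus the array median, with a scale of its own in each panel; open points are empty-vector (EV) arrays, filled points tRNA arrays, and bars are group means. COG3 shows all lineage arrays at 0.36 or below, PET122 shows none of this, and DNF1 shows the D11 arrays at -2.66 and -3.19 apart from the rest.

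MAG1, a DNA glycosylase that removes alkylated bases, fell unequally in the lineages. It stood at -0.11 and -0.13 in the ancestor with the empty vector and at -0.15, -0.054 and -0.15 with the tRNA. B3 stood at -0.81 and -0.86 and -0.94, -0.64 and -0.49, D11 at -2.08, -2.04 and -2.61 and -1.23, -1.15 and -1.12, and H9 at -1.78, -2.19 and -0.95 and -1.66, -1.76 and -1.79. With both plasmids it fell to 64% in B3 (adjusted p = 0.0206), 33.4% in D11 (adjusted p = 4.8e-06) and 33.7% in H9 (adjusted p = 5.76e-06). With the empty vector it was lower in D11 and in H9 than in B3, by -1.40 and -0.80 on the log2 scale, and with the tRNA in H9 by -1.05. DDI1, a ubiquitin-binding shuttle of the proteasome, fell to 55.4%, 50.1% and 54.1%. SCC4, which loads cohesin onto chromosomes, fell to 49.9%, 51.7% and 46.7% in B3, D11 and H9.

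YER158C, whose product is uncharacterised, also fell unequally. It stood at -0.79 and -1.05 and -1.48, -1.17 and -1.63 in the ancestor without and with the tRNA. Its levels were -2.91 and -3.06 and -2.90, -2.85 and -2.71 in B3, -2.54, -2.57 and -2.07 and -2.0, -2.40 and -1.74 in D11, and -1.91, -1.85 and -1.41 and -2.03, -1.92 and -2.11 in H9. B3 lay below all other arrays of the series. Both plasmids combined, the gene fell to 30.1%, 48.4% and 61.5% in B3, D11 and H9. It was higher in H9 than in B3 by 1.26 with the empty vector (adjusted p = 0.000298) and by 0.80 with the tRNA (adjusted p = 0.00472). COX15 was likewise higher in H9 than in B3 with the empty vector, by 1.40 (adjusted p = 0.000768). SPT15, the TATA-binding protein, and BUR6 were lower in H9 than in B3 in that comparison, by -0.39 and -0.52 on the log2 scale.

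The remaining first-stretch genes stayed closer to each other. SPT15 fell to 63.6%, 58.6% and 52.8% of the ancestor in B3, D11 and H9, and LSM5, part of the Lsm ring that guides mRNA decay and splicing, to 54.6%, 49.4% and 55.6%. BEM2, which acts in bud emergence, fell to 48.9%, 48.1% and 48.2%, and had a narrow interval around -1 in each lineage. EMP65, a membrane protein of the endoplasmic reticulum, fell to 50.4%, 47.3% and 49.1%. PEA2, a polarisome protein, fell to 50.8% in D11 and 46.2% in H9, and in B3 it was at 66.9% with an adjusted p of 0.0606. YER152C, an uncharacterised gene, stood at 2.37 and 2.50 and 2.62, 2.15 and 2.56 in the ancestor, at 1.45 and 1.54 and 1.61, 1.82 and 1.75 in B3 and at 1.22, 1.31 and 1.51 and 1.57, 1.41 and 1.45 in H9. All B3 and H9 arrays were below all ancestor arrays, at 56.5% and 49.1% of the ancestor, but the call was made in D11 only (32.1%, adjusted p = 0.0205). Its D11 levels were 1.38, 1.68 and -1.97 without and 1.76, 0.29 and 1.66 with the tRNA, so that the third empty-vector and the second tRNA array stood apart. Without these 2 arrays D11 was at 56.7% (adjusted p = 4.62e-05).

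COG3 and MYG1 had the smallest falls after PET122. COG3, a subunit of the Golgi tethering complex COG, stood at 0.90 and 0.91 in the ancestor with the empty vector and at 0.87, 0.86 and 0.82 with the tRNA. It stood at 0.28 and 0.18 and 0.17, 0.34 and 0.30 in B3, at -0.014, 0.10 and 0.36 and 0.054, 0.19 and 0.16 in D11, and at -0.094, -0.20 and 0.15 and 0.19, 0.003 and -0.021 in H9. Its falls, to 64.7%, 60.1% and 54.6%, were thus modest but without overlap. MYG1, a conserved gene, stood at 2.41 and 2.48 and 2.56, 2.25 and 2.36 in the ancestor. Its levels were 1.59 and 1.78 and 1.43, 1.54 and 1.37 in B3, 1.69, 1.93 and 2.54 and 1.31, 1.85 and 1.32 in D11, and 1.46, 1.80 and 1.22 and 1.81, 1.79 and 1.83 in H9. The third empty-vector array of D11 lay above some ancestor arrays, and all other lineage arrays lay below them. MYG1 fell to 55.4%, 64% and 58.8% in B3, D11 and H9.

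In the second stretch the meiotic gene DMC1, the recombinase of strand exchange in meiosis, had the lowest measured mean over D11 and H9, from a dim probe. It stood at -3.19 and -3.42 in the ancestor with the empty vector and at -3.75, -3.76 and -3.50 with the tRNA, and at -3.46 and -3.65 and -3.50, -3.84 and -3.87 in B3. D11 stood at -5.19, -5.63 and -5.66 and -5.24, -6.07 and -4.49, and H9 at -5.61, -5.26 and -4.46 and -5.43, -5.0 and -5.64. No D11 or H9 array reached the ancestor or B3. The gene was called lower in D11 and H9 (adjusted p = 3.6e-05 and 8.75e-05). Its measured levels, 27% and 29.9%, are uncertain in size and rank, since it was well above background on 1 of 3 D11 arrays with each plasmid. ISC10, which is required for sporulation, fell to 47.2% and 52.3% in D11 and H9 and was at 97.6% in B3.

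YER187W, an uncharacterised gene, came next and moved in opposite directions. It stood at -2.91 and -2.87 and -2.79, -3.04 and -2.79 in the ancestor without and with the tRNA, and at -2.28 and -2.23 and -1.77, -1.96 and -2.14 in B3. D11 stood at -4.57, -5.25 and -5.69 and -3.76, -4.98 and -3.91, and H9 at -4.22, -4.48 and -4.12 and -4.49, -4.0 and -4.47. All B3 arrays were above, and all D11 and H9 arrays below, the ancestor's range. The gene rose to 171% in B3 (adjusted p = 0.0278) and fell to 28.5% in D11 and 37.4% in H9 (adjusted p = 1.41e-05 and 0.000176). It was the only second-stretch member called higher in B3, and it was well above background on 21 of 22 arrays.

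DNF1, a flippase that moves phospholipids to the inner leaflet of the plasma membrane, had a large mean fall that rested on 2 arrays. The ancestor stood at 1.28 and 1.25 and 0.85, 1.13 and 1.13, and B3 at 0.93 and 1.02 and 1.01, 0.98 and 0.91, without and with the tRNA. D11 stood at 0.27, 0.26 and -2.66 and 0.19, -3.19 and 0.31, and H9 at 0.63, 0.82 and 0.52 and 0.19, 0.35 and 0.30. The third empty-vector and the second tRNA array of D11 lay far below all others. With both plasmids the gene was called lower in D11 (difference -1.96, adjusted p = 0.0196). Without these 2 arrays, an alternative chosen after their values were seen, the D11 level was 53.8% of the ancestor (adjusted p = 1.31e-06). In H9 the level was 62.4% without a call, since these arrays also widen the spread shared by all groups.

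Genes of chromatin, transcription and DNA repair followed the pattern of the second stretch. CHD1, a chromatin remodeller, had a small fall. It stood at 0.61 and 0.55 and 0.75, 0.68 and 0.63 in the ancestor, at 0.53 and 0.65 and 0.53, 0.41 and 0.61 in B3, at -0.093, 0.12 and 0.69 and -0.14, 0.21 and -0.17 in D11, and at -0.061, -0.079 and -0.066 and 0.011, 0.17 and 0.28 in H9. The third empty-vector array of D11 reached the ancestor's range and the other D11 and H9 arrays did not. CHD1 fell to 69.3% in D11 and 66.5% in H9. RPH1, a histone demethylase and repressor, fell to 66.1% and 63.6%, and TOG1, an activator of genes for fatty acid use, to 48.2% and 45.9%. The nucleotide excision repair gene RAD4 fell to 46.1% and 51.1%, and RAD3, a helicase of the transcription factor TFIIH, to 57.8% and 47.6%. RAD24, the loader of the DNA damage checkpoint clamp, fell to 55.8% and 51.4%. In B3 none of these genes was called.

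RNA-related genes behaved alike with differences in size. BRR2, the helicase that unwinds U4 from U6 in the spliceosome, stood at 0.70 and 0.73 and 0.80, 0.82 and 0.95 in the ancestor and at 0.97 and 1.04 and 0.90, 0.88 and 0.83 in B3. D11 stood at 0.039, 0.032 and 0.23 and -0.18, -0.14 and -0.22, and H9 at -0.027, 0.021 and -0.19 and -0.036, 0.092 and -0.11. Its fall, to 56.5% in D11 and 56.4% in H9, was without overlap. CCA1, which adds the CCA end to tRNAs, fell to 59.7% and 46.5%, and ECM32, a helicase linked to translation termination, to 38.9% and 43.6%. PAB1, the poly(A)-binding protein, fell to 66.5% (adjusted p = 0.0104) and 66.3% (adjusted p = 0.0151) with both plasmids combined. It was called in no comparison of a single plasmid.

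Metabolic, signalling and remaining genes of the second stretch were mostly near 50% as well. PDA1, the alpha subunit of pyruvate dehydrogenase, fell to 55.3% in D11 and 53.9% in H9, and to 83.4% in B3 (adjusted p = 0.0412). GRX4, a monothiol glutaredoxin of iron sensing, fell to 40.2%, 57.4% and, in B3, 78.7% (adjusted p = 0.0244), and was lower in D11 than in H9 with each plasmid. PDA1, GRX4, TMT1 and YER189W are the 4 genes of this stretch that were called lower in B3. That count was between 1 and 5 when single arrays were left out, and 1 with the deposited series values.

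GCG1, which degrades glutathione, fell to 54.9% and 50.9% in D11 and H9, and FAU1, a folate enzyme, to 52.5% and 50.6%. BMH1, an adaptor that binds phosphorylated proteins, fell to 61.8% and 58.9%, and BCK2, an activator of genes at the start of the cell cycle, to 55.7% and 56.7%. FMP10, a mitochondrial protein of unknown function, fell to 47.3% and 51.9%, and the uncharacterised YER186C to 50.3% and 50.2%. All of these were at 91.0% to 103% of the ancestor in B3.

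Some members stood at another level with the tRNA than with the empty vector in the ancestor. Whether this came with mistranslation or with the slower growth that the paper reports for the tRNA was not tested. Comparing the ancestor with and without the tRNA, 6 of the 47 members were called, fewer in proportion than the 21.6% of all genes. COX15 fell by 1.05 on the log2 scale (adjusted p = 0.00787), SPI1 by 1.07 (adjusted p = 0.000275) and ADK2, the mitochondrial GTP:AMP phosphotransferase, by 0.83 (adjusted p = 0.0353). TMT1, trans-aconitate methyltransferase, rose by 1.17 (adjusted p = 0.000296), PUG1, a plasma membrane transporter for protoporphyrin and heme, by 1.45 (adjusted p = 9.82e-05), and the uncharacterised YER188W by 0.42 (adjusted p = 0.0257). With single arrays left out, between 3 and 9 members were called, 3 of them without the first ancestor array with the empty vector and 9 without the third H9 array with the empty vector.

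Within B3, no member was called in the tRNA response by limma, against 1.05% of all genes. At an unadjusted p under 0.05, 1 member was lower and 3 higher, beside 149 and 246 of all 5912 genes. The methods' t-test gave 2 members at its unadjusted threshold and 0 after adjustment. Within D11 2 members were called, against 3.37% of all genes. MAG1 rose by 1.07 (adjusted p = 0.0108) and TMT1 fell by 0.64 (adjusted p = 0.0324). Within H9 4 were called, against 10.7% of all genes. With single arrays left out these counts ranged between 0 and 6 for D11 and between 1 and 5 for H9, with 0 for D11 without the third tRNA array and 1 for H9 without the first ancestor array with the empty vector. In H9 PUG1 rose by 0.92 and BUR6 by 0.40, and COX15 and YER188W fell by 0.75 and 0.39.

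**Figure D4:**
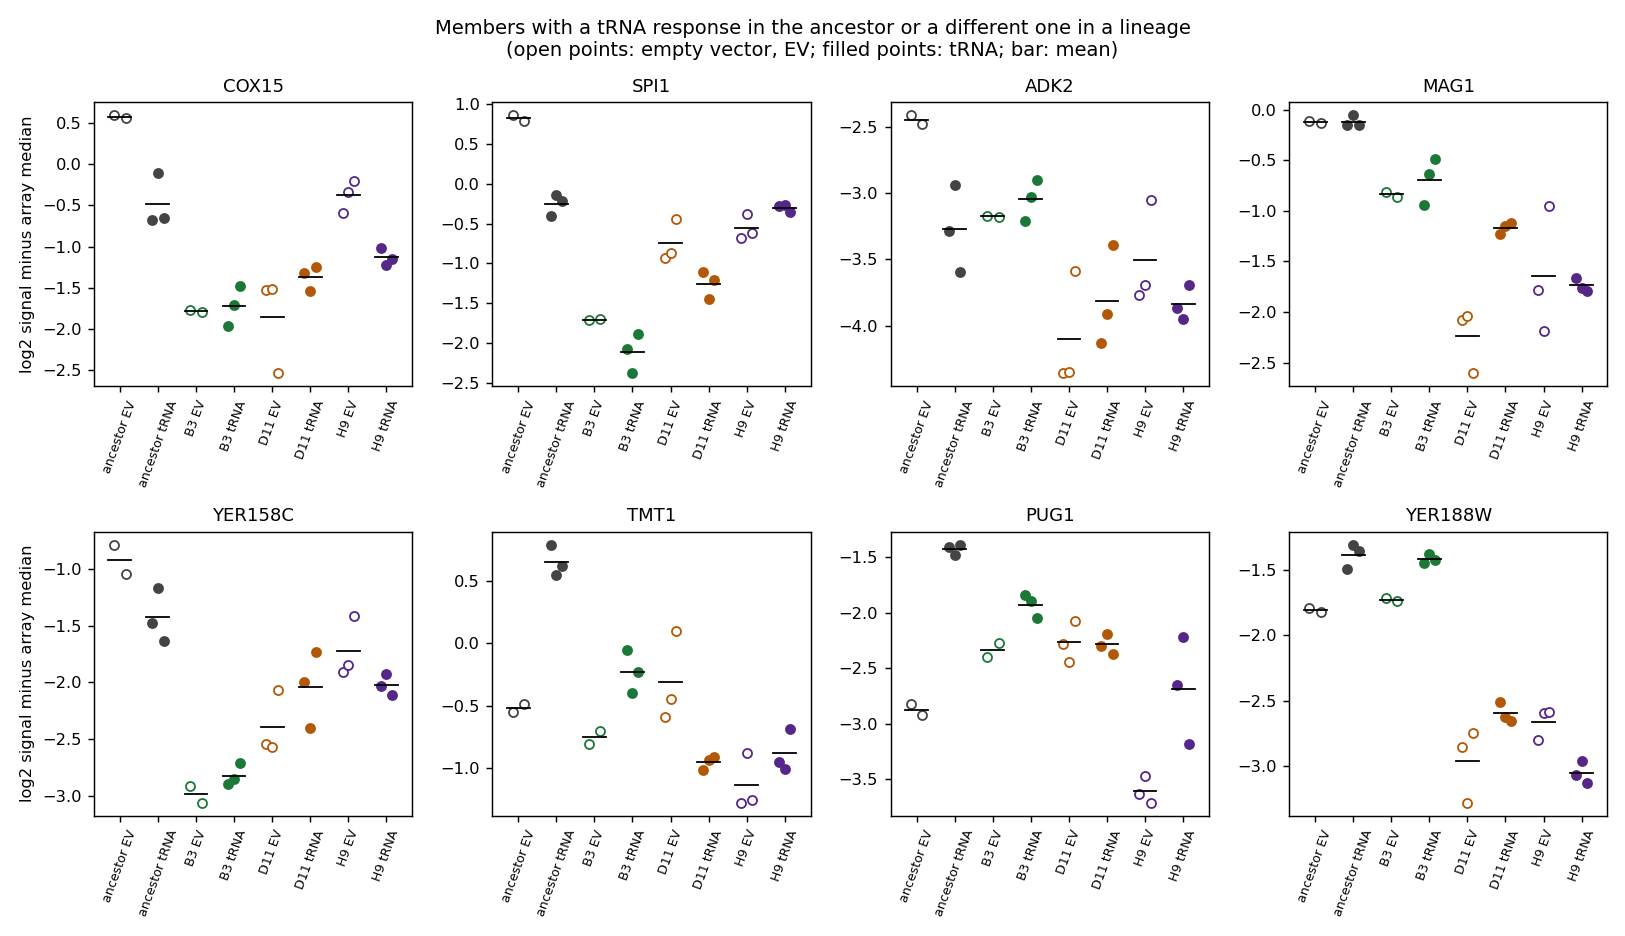
Level on each array of the members with a tRNA response in the ancestor or with a different response in a lineage, BRR2 excepted. The vertical axis is log2 signal minus the array median, with a scale of its own in each panel; open points are empty-vector (EV) arrays, filled points tRNA arrays, and bars are group means. TMT1 and PUG1 stand higher with the tRNA in the ancestor (means 1.17 and 1.45 apart), while in D11 TMT1 stands lower with the tRNA and the 2 PUG1 means differ by -0.019.

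The responses of the lineages were then tested against that of the ancestor. In D11 7 members responded differently, a smaller share than the 16.4% of all genes that did. TMT1 had stood at -0.55 and -0.49 and, with the tRNA, at 0.79, 0.55 and 0.62 in the ancestor, against -0.59, -0.45 and 0.10 and -1.01, -0.94 and -0.91 in D11. The rise of the ancestor was thus absent in D11, and its response was lower by -1.81 on the log2 scale (adjusted p = 0.000268). Elsewhere TMT1 stood at -0.81 and -0.70 and -0.051, -0.40 and -0.23 in B3 and at -1.28, -0.88 and -1.26 and -0.96, -1.01 and -0.69 in H9, without and with the tRNA. Relative to the ancestor TMT1 was therefore at 115% in D11 with the empty vector, with no call, and fell to 32.8% with the tRNA. H9 was at 65% with the empty vector (adjusted p = 0.0635) and fell to 34.5% with the tRNA, and B3 was at 84.9% and fell to 54.3%.

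PUG1 showed a like course. It stood at -2.82 and -2.92 in the ancestor with the empty vector and at -1.41, -1.48 and -1.39 with the tRNA. Its levels were -2.40 and -2.28 and -1.84, -1.89 and -2.05 in B3, -2.28, -2.45 and -2.07 and -2.30, -2.19 and -2.37 in D11, and -3.63, -3.47 and -3.71 and -2.65, -2.22 and -3.18 in H9. The D11 arrays did not separate by plasmid, and the response differed from the ancestor's by -1.47 (adjusted p = 0.00215). With the empty vector PUG1 was called higher in D11 (152% of the ancestor, adjusted p = 0.0239), the only second-stretch member with such a call, and it lost the call when either ancestor array or the third D11 array was left out. In H9 it fell to 60.2% with the empty vector, and with the tRNA it fell to 55% in D11 and 41.7% in H9. In B3 it was at 145% and 70.6% without and with the tRNA, neither called.

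COX15, ADK2 and YER158C had lower mean levels with the tRNA in the ancestor and higher ones with it in D11. Their responses differed. COX15 differed by 1.54 (adjusted p = 0.00811), ADK2 by 1.11 (adjusted p = 0.0429) and YER158C by 0.86 (adjusted p = 0.0421). ADK2 stood at -2.41 and -2.48 and -3.28, -2.94 and -3.60 in the ancestor, -3.17 and -3.18 and -3.21, -3.03 and -2.90 in B3, -4.36, -4.35 and -3.59 and -4.13, -3.91 and -3.39 in D11, and -3.77, -3.69 and -3.05 and -3.87, -3.95 and -3.69 in H9. With both plasmids it fell to 46.7% in D11 and 56.9% in H9. MAG1, which did not move in the ancestor, differed by 1.07 (adjusted p = 0.0388), and BRR2 by -0.42 (adjusted p = 0.0293). Without the third empty-vector and the second tRNA array of D11, MAG1 lost its call (difference 0.88, adjusted p = 0.0721), the other 6 members kept theirs, and SPT15, SPI1, YER187W and YER189W gained one (adjusted p = 0.0305, 0.00932, 0.0169 and 0.036). With single arrays left out, between 3 and 12 members responded differently, with 3 without the first ancestor array with the empty vector and 12 without the third H9 array with the empty vector.

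In H9 2 members responded differently, beside 0.846% of all genes. SPI1, lower with the tRNA in the ancestor, showed a response higher by 1.33 in H9 (adjusted p = 0.00904). YER188W stood at -1.79 and -1.82 and -1.49, -1.30 and -1.35 in the ancestor, -1.72 and -1.74 and -1.45, -1.38 and -1.42 in B3, -2.85, -3.28 and -2.75 and -2.51, -2.62 and -2.65 in D11, and -2.80, -2.60 and -2.59 and -3.07, -2.96 and -3.13 in H9. It stood higher with the tRNA in the ancestor and lower with it in H9, a difference of -0.81 (adjusted p = 0.0284), and fell to 44% and 41.7% of the ancestor in D11 and H9 overall. In B3 no member's response was called different by limma, against 0.913% of all genes. At an unadjusted p under 0.05, the response of 3 members was lower and of 4 higher, beside 412 and 552 of all 5912 genes. The count in H9 was 0 without the first ancestor array with the empty vector. All these responses share the ancestor's arrays.

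The 3 genes within the first stretch that the members leave out were lower too. UBP5, a ubiquitin protease, was at 54.1%, 48.3% and 52.6% of the ancestor in B3, D11 and H9, and UBP3, a ubiquitin protease of ribosome turnover, at 73%, 56.7% and 64.8%. FTR1, the iron permease, was at 45.7%, 51.5% and 53.5%. These levels are with both plasmids combined, where all 9 differences were called, against 6.77%, 7.9% and 6.63% of all tested genes called lower. With the empty vector alone, FTR1 was not called in B3 (59.5%, adjusted p = 0.0993) or D11 (67.5%, adjusted p = 0.119). UBP3 was not called in B3 there either (72%, adjusted p = 0.11).

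Many products of this chromosome end work in complexes whose other subunits are encoded elsewhere. Of 36 such partner genes outside the segments that the study lists as changed in copy number, none was called in B3, 2 were lower and 2 higher in D11, and 2 were lower in H9, with both plasmids combined. All of these shares are below those of all tested genes, which were 6.77%, 7.9% and 6.63% lower and 7.8%, 15.4% and 5.73% higher in B3, D11 and H9. Their median difference was 0.053 for B3, -0.059 for D11 and -0.035 for H9. In D11 the lower partners were BMH2, the paralogue of BMH1 (-0.44, adjusted p = 0.0365), and SCC2, with which SCC4 loads cohesin (-0.32, adjusted p = 0.00886). The higher ones were LSM7 (0.38) and FRA2, a partner of GRX4 in iron sensing (0.32). In H9 the lower ones were COG4 (-0.37, adjusted p = 0.00469) and RAD23, which acts with RAD4 (-0.18, adjusted p = 0.0441). For COG3, 1 of its 6 partners on unchanged segments was called in any lineage, for PET122 neither PET54 nor PET494 was, and LEM3, the subunit that DNF1 needs, was at -0.096, -0.041 and 0.16. PRP8 and SNU114, which work with BRR2, were not called with both plasmids combined. SNU114 was higher in D11 with the empty vector alone (0.51, adjusted p = 0.0233). Of the partners of PDA1 in pyruvate dehydrogenase, LAT1 and LPD1 were lower in D11 in that comparison (-0.48 and -0.82, adjusted p = 0.00417 and 0.0128), and LAT1 in B3 (-0.42, adjusted p = 0.0291).

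Among the 11 partner genes on changed segments, 2 (B3), 4 (D11) and 4 (H9) were higher, and H9 had 2 that were lower, beside the shares of all genes just given. The largest of these differences was that of NCB2, with which BUR6 forms NC2. NCB2 was higher in D11 (1.0, adjusted p = 9.07e-06) and in H9 (0.78, adjusted p = 0.000106), and its difference in B3 was 0.27 (adjusted p = 0.132). In D11 and H9, then, the transcript of BUR6 was lower and that of NCB2 higher than in the ancestor.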

How the data were processed

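The authors deposited array intensity values per spot, made with Agilent Feature Extraction 10.7.3.1, which subtracts background and gives a processed signal. A table of log2 values that the authors deposited for the whole series served as an alternative; its columns equal the logarithm of background-subtracted signals apart from 1 constant per array. The study's methods state median centring and Student's test. Processed signals were put on the log2 scale and each array's median was subtracted. Outlier spots were left out, and values were averaged over the 2 spots of a probe, then over a gene's probes. Probes had to be well above background, with 1 spot or both, throughout some group, as 5940 of 6256 probes were (5912 genes). Fits used limma 3.58.1 under R 4.3.3 (1 coefficient per group, 14 residual and 2.23 prior degrees of freedom), with Benjamini-Hochberg adjustment over all 5912 genes and moderated 95% intervals. The script was tested on simulated data. No fold cut was set, since 50% lies at a 2-fold cut.

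Members and lists were chosen with earlier results of these data known. Every member is named, and levels on all arrays are given for the edge genes and the 2 nearest outside genes, for the 3 largest and 3 smallest falls of each stretch, and for members with a tRNA response in the ancestor or a different response in a lineage. The array design names an older genome build than the R64 annotation, which served for names and gene order only. It lists all 48 members and 5720 of the 6225 array genes. Partner genes were listed from known complexes. Alternatives were other scalings, normexp background correction with an offset of 50 (on median signals, the mean not being in the files used here), other filters and call rules, slides as a block, and arrays left out. The number of arrays limits the precision.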

Additional observations from a re-analysis of the deposited data

Results flagged for a closer look

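The following results differed between groups by a test of the difference itself (limma, adjusted over all genes). No outlier test was applied to the groups of 2 or 3 arrays; 2 arrays of D11 were set apart in an alternative after their values were seen.

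Second-stretch members were lower in D11 and in H9 than in B3, a difference known when the stretch was delimited. The counts were 22 (D11) and 23 (H9) of 29 with the empty vector, and 25 (D11) and 24 (H9) with the tRNA. In the first stretch 2 (D11) and 6 (H9) of 18 members differed from B3 with the empty vector and 2 and 3 with the tRNA, against 11.4%, 27.7%, 11.5% and 17.9% of all genes, so these counts are close to the background. With the empty vector, MAG1 differed by -1.40 and SPI1 by 0.95 in D11. In H9 with the empty vector the differences were 1.40 for COX15, -0.80 for MAG1, -0.39 for SPT15, 1.15 for SPI1, 1.26 for YER158C and -0.52 for BUR6. With the tRNA they were 0.86 for SPI1 and 0.78 for YER158C in D11, and -1.05 for MAG1, 1.81 for SPI1 and 0.80 for YER158C in H9.

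Responses to the tRNA that differed from the ancestor's were those of COX15 (1.54), MAG1 (1.07), YER158C (0.86), ADK2 (1.11), BRR2 (-0.42), TMT1 (-1.81) and PUG1 (-1.47) in D11, and of SPI1 (1.33) and YER188W (-0.81) in H9, all as log2 differences of responses. Of all genes, 16.4% responded differently in D11 and 0.846% in H9, so the share of members in D11 is no larger than the background. The D11 values include the third empty-vector array, which correlated least with its replicates. Without it and the second tRNA array of D11, MAG1 lost its call, the other 6 members kept theirs, and SPT15, SPI1, YER187W and YER189W gained one.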

How the results depend on the processing

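No count of members or stretch mean changed its direction under any alternative. Over 37 results, 1099 alternative values stayed within 1.5 times the reported count or within 1 SD of the reported mean, and the other 185 are given here, those with 1 array left out as ranges. For the single genes described in full, 1850 alternative values kept their call, 123 lost one and 34 gained one, with none reversed. A 2-fold cut lowered most counts, since a level of 50% lies at the cut. With an adjusted p and at least 2-fold, first-stretch counts with the empty vector were 6, 8 and 7 in B3, D11 and H9, with the tRNA 6, 4 and 5, and with both plasmids 7, 9 and 6. Second-stretch counts were 0, 11 and 13 with the empty vector, 0, 12 and 11 with the tRNA and 0, 12 and 9 with both. Of all 5912 genes, 115, 197 and 40 passed this rule with the empty vector, 27, 43 and 99 with the tRNA, and 56, 58 and 58 with both. Against B3, D11 had 8 and 11 and H9 had 9 and 9, without and with the tRNA. There 60 and 44 of all genes passed in D11, and 219 and 111 in H9. For the rules and fits that follow no share of all genes is given, so they show only how the members' counts moved. With 2-fold and no p, the first-stretch counts were 6, 8 and 8, then 6, 5 and 5, then 7, 9 and 7, and the second-stretch counts 0, 12 and 13, then 0, 13 and 11, then 0, 12 and 9. Those against B3 were 9 and 12 in D11 and 9 and 9 in H9. D11 and H9 differed at 2 and 0 members (with an adjusted p and 2-fold) or 3 and 1 (2-fold only), without and with the tRNA. Responses to the tRNA then numbered 1 in D11 and 0 in H9 by either rule, and differences of responses 1 in H9 by either and 2 in B3 by fold alone.

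The methods' t-test at its unadjusted threshold gave 10 first-stretch and 12 second-stretch genes in D11 and 14 second-stretch genes in H9 with the empty vector, 2 second-stretch genes in B3 with either plasmid, 12 (D11) and 14 (H9) against B3 with the empty vector, 1 between D11 and H9, and 2 responses in B3 and in H9. After adjustment it gave 6 first-stretch and 7 second-stretch genes in D11, 0 and 2 in H9 and 3 second-stretch genes in B3 with the empty vector, 5 first-stretch genes in B3 and in D11, 11 second-stretch genes in D11 and 0 in B3 with the tRNA, 0 (D11) and 3 (H9) against B3 with the empty vector, 16 for D11 against B3 with the tRNA, 0 between D11 and H9, and 3 responses in the ancestor and 0 in D11 and H9. A fit of only the groups compared gave 0 and 0 in H9, 9 second-stretch genes in B3, 0 (D11) and 14 (H9) against B3 and 0 between D11 and H9 with the empty vector, 2 second-stretch genes in B3 with the tRNA, 0 responses in D11 and H9, and 5 differences of responses in B3.

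The B3 counts in the second stretch with the empty vector were 2 with the 75th percentile and 0 with normexp or the deposited series values. With both plasmids they were 2 when arrays were centred on unchanged chromosomes and 1 with normexp or the deposited values. Normexp also gave 9 members differing between D11 and H9, 0 responses in D11, 4 differences of responses in D11 and 1 in H9. The deposited values gave 0 responses in D11, 1 in H9 and 4 differences of responses in D11. Quantile normalization gave 1 difference in H9. With normexp the first-stretch means, both plasmids, were -0.87 in B3 and -0.82 in D11, and the second-stretch means -0.68 in D11 and -0.79 in H9. The B3 second-stretch mean was -0.097 with the 75th percentile, -0.019 centred on unchanged chromosomes and -0.091 over genes well above background on all arrays, where D11 and H9 had -0.88 and -0.88. Without the third empty-vector and second tRNA array of D11, chosen after the data were seen, B3 had 3 and H9 27 second-stretch genes with the empty vector, D11 and H9 differed at 5 members with the tRNA, H9 had 7 responses and B3 2 differences of responses.

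Arrays of the same replicate number share a slide, and those numbered 3 were also scanned on another day. Correlations of same-numbered deviations averaged 0.057, -0.0016 and -0.011 for the numbers 1, 2 and 3. Single values ran from -0.25 to 0.60, from -0.56 to 0.19 and from -0.40 to 0.33. Correlations with the other numbers averaged -0.072, -0.066 and -0.074. With the number as a replicate block, the differences of responses in H9 went to 1, and no other count moved by over 1.5 times.

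With single arrays left out, first-stretch counts in B3, D11 and H9 ran from 10 to 15, 13 to 16 and 10 to 17 with the empty vector, and from 13 to 15, 13 to 17 and 11 to 16 with the tRNA. Second-stretch counts ran from 0 to 4, 20 to 25 and 15 to 25, and from 1 to 2, 22 to 26 and 23 to 24. With both plasmids the B3 second-stretch count ran from 1 to 5. Against B3, D11 ran from 16 to 22 and from 21 to 26, and H9 from 17 to 25 and from 23 to 25. Between D11 and H9 the counts were 10 to 16 and 2 to 5. Responses were 3 to 9 in the ancestor, 0 to 6 in D11 and 1 to 5 in H9, and differences of responses 0 to 2 in B3, 3 to 12 in D11 and 0 to 3 in H9. Dim signal limits DMC1, and YER181C could not be tested.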
